A study of Mus musculus with 8 samples.

Results

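The DNA replication and S-phase genes described here were 41 named genes whose products license replication origins, unwind DNA, copy both strands, supply nucleotides or drive entry into S phase. They were found as the probe sets whose only gene symbol in the platform annotation was one of the 41 symbols, and all 41 were measured, by 88 probe sets, among 18193 genes in all. The 8 one-colour arrays held RNA of 4 bone metastases and of 4 primary tumours grown from 4T1.2 cells, a line of mouse mammary carcinoma that metastasises to bone when it grows in the mammary gland. All came from Balb/c mice without any labelled drug or genetic change. The bone metastasis group was taken from the spine and the primary tumour group from the mammary gland. Each metastasis shares its number with the primary tumour of the same mouse, so that the numbers 1 to 4 stand for 4 mice. Ages were not among the labels used here. The labels call the material of both groups tumour epithelial cells but name no sort or gate. The model limits the groups to 1 transplanted line, and the spine samples could hold host cells of the marrow.

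Replication begins with licensing in G1, when the origin recognition complex, Cdc6 and Cdt1 load the ring-shaped MCM2-7 helicase onto origins. At S phase entry, cyclin E with Cdk2 and the kinase Cdc7 help to turn the loaded ring into an active helicase with Cdc45 and the GINS complex. Polymerase alpha with primase then lays primers, polymerases delta and epsilon extend them on the PCNA clamp, and ribonucleotide reductase, thymidylate synthase and thymidine kinase supply precursors. Many of these genes are transcribed by E2F factors as cells leave G1, so their summed RNA in a tissue follows the share of its cells that cycle. In bulk RNA, fewer cycling cells and less RNA per cell cannot be told apart.

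The promoters of the 4 genes with a significant difference between the groups are shown first, because this gene class is known for E2F control. Sequences are from RefSeq on GRCm38.p6, from 250 bases before to 50 bases after a transcription start, written 5′ to 3′ on the gene's strand. Of the 41 genes, 33 had an entry, with 38 windows, and those without one were Mcm4, Gins1, Gins2, Gmnn, Prim2, Pole, Rfc2 and Ccne2. Capitals mark E2F letters (TTTGGCGC, TTTCGCGC or TTTCCCGC) and CCAAT boxes (CCAAT) on either strand. Pold1 and Orc1, which were higher in bone metastasis, lie on the minus strand at chr7:44548766-44549065 and on the plus strand at chr4:108579204-108579503. Pcna and Tk1, which were lower, both lie on the minus strand, at chr2:132253131-132253430 and chr11:117825965-117826264.
Pold1: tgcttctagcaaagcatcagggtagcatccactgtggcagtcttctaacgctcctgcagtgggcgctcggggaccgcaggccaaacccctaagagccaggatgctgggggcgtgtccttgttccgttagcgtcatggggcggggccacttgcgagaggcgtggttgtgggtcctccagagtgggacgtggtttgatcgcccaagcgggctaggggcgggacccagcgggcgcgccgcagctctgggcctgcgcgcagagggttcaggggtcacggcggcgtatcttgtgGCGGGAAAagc
Orc1: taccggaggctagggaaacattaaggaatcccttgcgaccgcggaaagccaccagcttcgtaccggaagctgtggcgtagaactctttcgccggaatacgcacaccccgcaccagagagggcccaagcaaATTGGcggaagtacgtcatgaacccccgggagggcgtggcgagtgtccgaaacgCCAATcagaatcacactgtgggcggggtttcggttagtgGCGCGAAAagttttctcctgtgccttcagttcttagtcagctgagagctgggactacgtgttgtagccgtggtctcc
Pcna: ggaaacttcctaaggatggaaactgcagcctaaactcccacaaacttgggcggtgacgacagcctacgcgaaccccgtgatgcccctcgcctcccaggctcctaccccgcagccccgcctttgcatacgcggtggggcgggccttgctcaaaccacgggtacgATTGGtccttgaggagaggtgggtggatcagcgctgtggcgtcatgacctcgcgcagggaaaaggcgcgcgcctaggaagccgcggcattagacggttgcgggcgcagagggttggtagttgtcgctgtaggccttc
Tk1: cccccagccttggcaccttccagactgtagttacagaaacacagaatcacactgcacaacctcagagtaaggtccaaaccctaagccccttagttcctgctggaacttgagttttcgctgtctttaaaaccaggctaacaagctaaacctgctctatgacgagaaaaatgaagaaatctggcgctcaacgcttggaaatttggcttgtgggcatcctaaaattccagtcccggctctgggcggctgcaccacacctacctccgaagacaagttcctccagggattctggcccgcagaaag
The E2F letters lay 40 bases after the start in Pold1 and 27 bases before it (-27) in Orc1, and these letters were not in the windows of Pcna and Tk1.

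E2F letters were in the windows of 13 of the 33 genes (39.4%), against 2.76% of all protein-coding genes with a window. By window the shares were 34.2% of the replication genes' windows, 2.41% of those of protein-coding genes and 1.84% of all promoters in the table. CCAAT boxes were in 63.6% of the replication genes and in 42.3% of protein-coding genes. GC boxes (GGGCGG, either strand) were in 75.8% and 49.2%, and the cell cycle homology letters TTTGAA in 15.2% and 18.5%. The GGGAAA end of the E2F letters can follow a GC box, so that GCGGGAAA shares bases with some GC boxes. The windows of the replication genes had a median GC content of 58.8%, against 56.3% for those of protein-coding genes. The 13 genes were Orc1, Cdc6, Cdt1, Mcm3, Mcm5, Mcm6, Mcm7, Gins3, Pola1, Pold1, Pole2, Rfc3 and Lig1, so that 4 of the 6 MCM2-7 genes held a match. The stretches of these 4 MCM genes that hold all their matches are shown, with the matches in capitals, because the matches of Mcm3 lie close together, some of Mcm5 and Mcm6 overlap, and those of Mcm7 lie on both sides of the start (-165 and 17). They lie on GRCm38.p6 at chr1:20820263-20820303 (Mcm3, minus strand), chr8:75109346-75109377 (Mcm5, plus), chr1:128359735-128359825 (Mcm6, minus) and chr5:138171850-138172058 (Mcm7, minus).
Mcm3: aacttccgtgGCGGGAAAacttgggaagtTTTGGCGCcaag
Mcm5: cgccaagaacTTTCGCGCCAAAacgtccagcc
Mcm6: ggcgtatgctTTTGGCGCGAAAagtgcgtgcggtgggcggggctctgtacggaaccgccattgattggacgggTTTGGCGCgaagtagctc
Mcm7: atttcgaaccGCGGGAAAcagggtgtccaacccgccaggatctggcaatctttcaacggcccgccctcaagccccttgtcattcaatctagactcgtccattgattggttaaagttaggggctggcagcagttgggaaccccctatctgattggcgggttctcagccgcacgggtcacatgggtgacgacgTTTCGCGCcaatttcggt
Mcm3, Mcm5 and Mcm7 held 2 matches each and Mcm6 held 3. In Mcm5 and at the first site of Mcm6, matches on both strands overlap. A match is a run of letters and not a measured binding site.

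The arrays were not alike within the bone metastasis group, and the values below were read with that in view. Correlations over the named probe sets between arrays of a group ran between 0.896 and 0.953 in bone metastasis and between 0.979 and 0.992 in primary tumour. The signal of the actin control dropped between its 3′ and 5′ probe sets by 5.33 ± 0.76 on the log2 scale in bone metastasis and by 1.49 ± 0.44 in primary tumour (SD, n = 4 each; exact permutation test, two-sided, p = 0.0286, the smallest that 4 against 4 arrays allow, and 0.0286 after adjustment over 2 controls). The drop of the Gapdh control was 5.22 ± 0.71 in bone metastasis and 2.15 ± 0.48 in primary tumour (SD, n = 4 each), with the same exact p of 0.0286. Keratin 8, which marks simple epithelia, had log2 signals of 7.34, 12.39, 9.80 and 12.97 on bone metastasis arrays 1 to 4, against 13.07 to 13.32 on the primary arrays. Its partner keratin 18 had 6.05, 10.95, 8.49 and 11.86 on the same metastasis arrays, against 11.37 to 11.95, whereas Epcam, a surface protein of epithelial cells, had 8.34 to 9.35 in bone metastasis and 8.65 to 9.26 in primary tumour. Both keratins were lowest on metastasis array 1 and low on array 3, so these defining markers of the labelled cell type were not at 1 level in the metastases. Over the 10 epithelial markers, 0 were called higher and 2 lower, Krt19 (log2 fold -3.36) and Cldn4 (-1.55). Keratin 8 and keratin 18 were not called (limma adjusted p = 0.126 and 0.175). Cdh1, from the same list, had a positive log2 fold of 0.43 without a call.

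Between the groups, few replication genes differed. By limma, at an adjusted p under 0.05 (Benjamini-Hochberg over all 18193 genes), 2 of the 41 genes were higher in bone metastasis, Pold1 and Orc1, and 2 were lower, Pcna and Tk1, on the brightest probe set of each gene. The remaining 37 did not pass. Over all genes the same test called 9.72% higher and 12.1% lower, so neither share of the replication genes exceeded that of genes at large. The same 4 genes were also the only ones whose arrays did not overlap between the groups, 2 above and 2 below, where 15.2% of all genes lay wholly above and 14.2% wholly below. An unadjusted p under 0.05 was found for 6 of the 41 and for 6584 of all genes. The median log2 fold (metastasis minus primary) was 0.09 over the replication genes and 0.09 over all genes. The replication genes were brighter than genes at large, with a median log2 signal of 7.70 against 6.32, so genes with a mean log2 signal of at least 6 (36 replication genes and 9934 in all) serve as a second comparison. Of those, 1 replication gene was higher and 2 lower, against 1264 and 1997 of all such genes, and the median log2 folds were 0.00 and -0.21.

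The replication genes spread widely among the metastases. Their standard deviation over the 4 bone metastasis arrays had a median of 0.99 on the log2 scale, against 0.41 over all genes, while over the 4 primary arrays it was 0.30, against 0.17 over all genes. Among the brighter genes the same medians were 1.06 against 0.55 in bone metastasis and 0.30 against 0.22 in primary tumour. The SE of the log2 fold had a median of 0.44, against 0.23 over all genes and 0.29 over the brighter ones. Set against the mean of the primary arrays, the median replication gene lay at 1.16 on metastasis array 1, -0.13 on array 2, -0.72 on array 3 and -0.22 on array 4. The same medians over all genes were -0.01, 0.02, 0.08 and 0.15. Among the brighter genes they were 1.11, -0.15, -0.93 and -0.25 for replication genes, against -0.03, -0.06, -0.33 and -0.41 for all, so that on array 4 the replication genes lay above genes of like brightness. Metastasis array 1 had the highest of the 4 metastasis signals in 39 of 41 genes (95.1%, against 23.7% of all genes and 35.0% of the brighter ones), and array 3 or 4 had the lowest in 32 (78.0%, against 44.7% and 61.9%). Array 1 exceeded all primary arrays in 34 genes (82.9%, against 34.7% and 38.03%). Arrays 3 and 4 both lay below all primary arrays in 19 (46.3%, against 27.6% of all genes), but among the brighter genes this share was 50% of the replication genes and 45.1% of all. Within mice, the metastasis exceeded its own primary tumour in 35 genes in mouse 1, 20 in mouse 2, 11 in mouse 3 and 17 in mouse 4. As shares these were 85.4%, 48.8%, 26.8% and 41.5%, against 49.4%, 51.2%, 55.4% and 58.1% of all genes. Among the brighter genes they were 86.1%, 47.2%, 22.2% and 38.9% of the replication genes, against 47.0%, 48.3%, 40.3% and 38.4% of all, so that mouse 4 showed hardly any difference at like brightness. These are descriptions of 4 arrays, with no test.

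**Figure D1:**
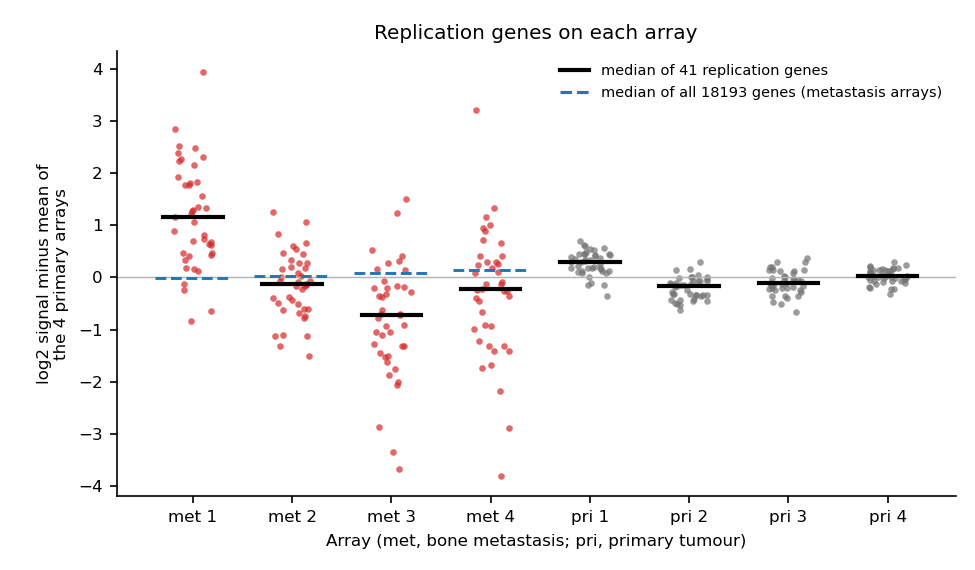
Log2 signal of each of the 41 replication genes minus its mean on the 4 primary arrays (y axis), for bone metastasis arrays 1 to 4 (left, red points) and primary tumour arrays 1 to 4 (right, grey points). Black bars are medians over the replication genes and dashed bars medians over all genes. The metastasis medians lie at 1.16, -0.13, -0.72 and -0.22, wider apart than those of all genes, which lie between -0.01 and 0.15, or of all genes with a mean log2 signal of at least 6, which lie between -0.41 and -0.03.

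**Figure D2:**
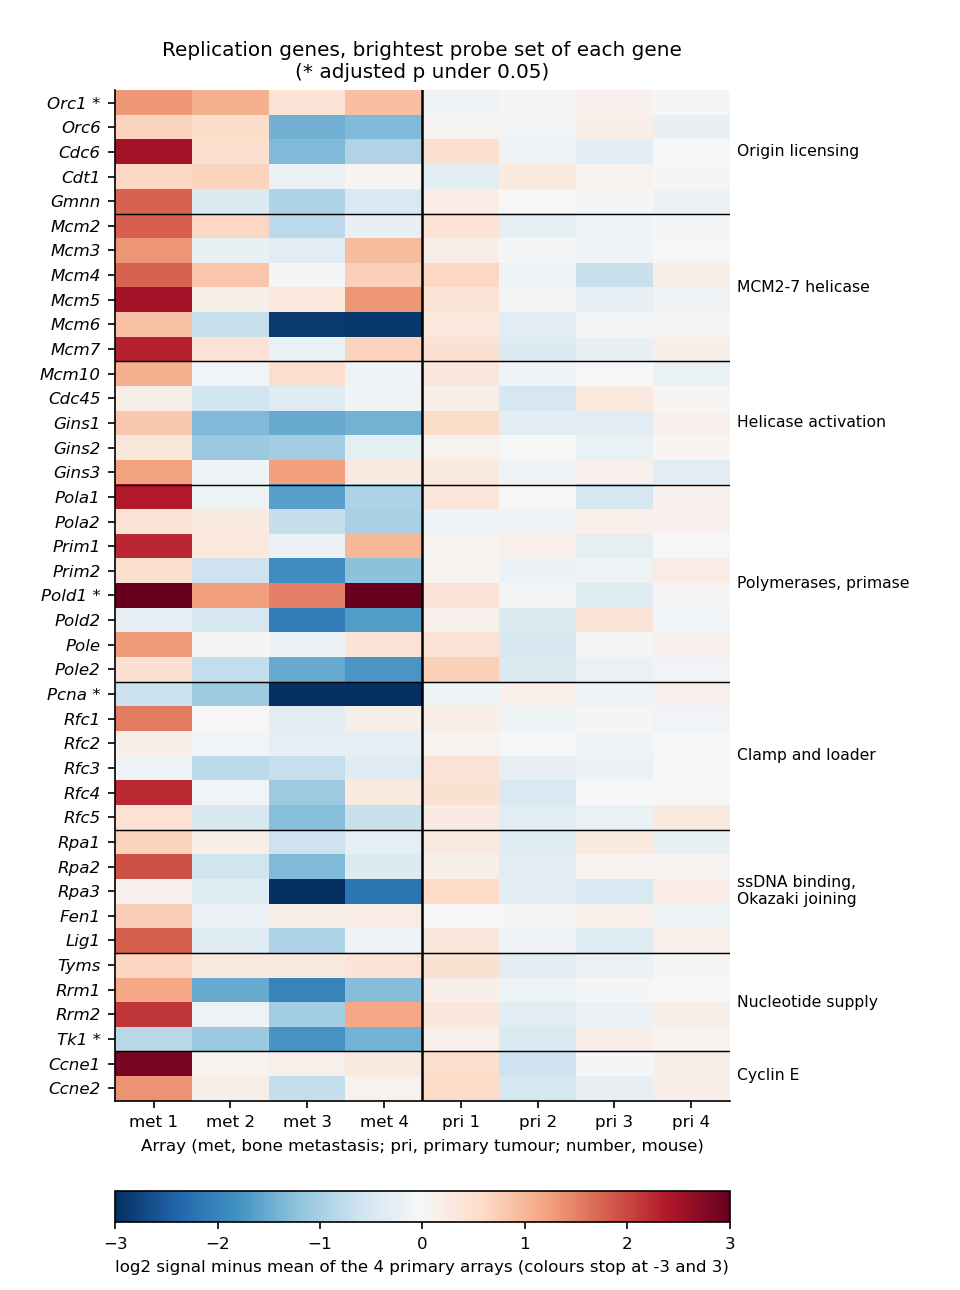
The same differences gene by gene, grouped by role, with bone metastasis arrays left of the line and primary tumour arrays right of it, and colours ending at -3 and 3 on the log2 scale. Metastasis array 1 is the highest of the 4 metastases in 39 of 41 genes, and stars mark the 4 genes past the threshold.

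Metastasis array 1 was the highest metastasis in 39 of the 41 genes, so leaving it out had to lower most of their folds. Without metastasis array 1, 2 genes were higher and 10 lower, where all genes gave 11.6% higher and 14.8% lower in that fit. Besides Pcna and Tk1, the lower genes were then Rrm1 (log2 fold -1.60), Mcm6 (-2.15), Pold2 (-1.42), Gins1 (-1.41), Pole2 (-1.33), Prim2 (-1.24), Gins2 (-0.81) and Gmnn (-0.60), and the median over the 41 genes was -0.29. Without both arrays of mouse 1 the counts were 1 higher and 6 lower, with a median of -0.16, where 7.39% of all genes were higher and 10.2% lower. Without mouse 3 it was 1 higher and 0 lower, and without mouse 4 no replication gene passed, but fewer of all genes passed too (3.83% higher and 3.89% lower without mouse 3, 5.1% and 5.58% without mouse 4). Leaving out mouse 2 gave 1 higher and 1 lower, where 1295 and 1997 of all genes passed. Leaving out metastasis array 2 gave 2 and 2, where 2015 and 2719 passed. Leaving out metastasis array 3 or 4 gave 2 and 1, where 1398 and 1547, or 1746 and 1930, passed. Shares among the brighter genes were not taken in these fits.

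The licensing genes were Orc1, Orc6, Cdc6, Cdt1 and Gmnn. Orc1, the largest subunit of the origin recognition complex, had log2 signals of 6.68, 6.43, 5.79 and 6.27 in bone metastasis, against 5.27, 5.42, 5.50 and 5.32 in primary tumour. All 4 metastasis arrays lay above all primary arrays, narrowly on array 3. The log2 fold of 0.92 (SE 0.20) was a 1.89-fold rise (limma adjusted p = 0.0137). Since the groups did not overlap, the metastasis was necessarily the higher one in 4 of 4 mice. Another, dimmer probe set of Orc1, with a mean of 4.23 in bone metastasis and 4.55 in primary tumour, went the other way in 4 of 4 mice. It had a log2 fold of -0.32 and no call, so the sets of Orc1 give no single direction. The mean of the sets had a log2 fold of 0.30 and did not pass (limma adjusted p = 0.158). Cdc6, the loader ATPase, did not pass, with signals of 8.63, 6.59, 4.79 and 5.20 in bone metastasis and 5.76 to 6.6 in primary tumour. Its metastasis arrays lay on both sides of the primary ones, array 1 well above and arrays 3 and 4 below. Gmnn, which encodes geminin, the inhibitor of Cdt1, showed the same order with 10.64, 8.46, 7.96 and 8.43, against 8.70 to 9.10 in primary tumour, and its log2 fold was -0.01. Orc6 and Cdt1 had log2 folds of -0.39 and 0.29 without a call on their brightest sets. The other sets of Cdt1 had -1.27 and -0.02, also without a call.

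None of the 6 MCM2-7 genes, which encode the subunits of the helicase ring, passed on the brightest probe set, with log2 folds between -1.39 and 1.07 and a median of 0.62. Mcm5 had 11.91, 9.60, 9.74 and 10.75 in bone metastasis and 9.19 to 9.83 in primary tumour. Its arrays 1 and 4 lay above all primary arrays and the other two among them (log2 fold 1.07, SE 0.48, limma adjusted p = 0.141). Mcm4 had 10.77, 9.83, 8.94 and 9.71, against 8.35 to 9.62, on its brightest set. This set has the suffix _x_at, which the array's maker gives to sets with probes that may match other transcripts. It was higher in the metastasis in 4 of 4 mice and passed with the mouse as a block (log2 fold 0.81, limma adjusted p = 0.0365). Its other set went the other way in 4 of 4 mice, with 8.80, 8.17, 7.11 and 6.77 in bone metastasis and 8.41 to 9.07 in primary tumour and a log2 fold of -0.93 without a call, so the 2 sets of Mcm4 give no single direction. The other sets of Mcm5 had log2 folds of -0.94 and 0.48, and those of Mcm6 0.32 and 0.38, none of them called. On its brightest set Mcm6 had 10.75, 9.18, 6.99 and 6.97 in bone metastasis and 9.55 to 10.18 in primary tumour. Arrays 3 and 4 lay far below every primary array while array 1 lay above them (log2 fold -1.39, SE 0.78, limma adjusted p = 0.234). On their brightest sets Mcm2 had a log2 fold of 0.35 and Mcm3 of 0.44. The other Mcm2 set had -1.49 without a call. Further Mcm3 sets had -0.67, 0.68 and -0.61 without a call. A dim Mcm3 set rose by 0.52 (SE 0.15, limma adjusted p = 0.0413 over probe sets). Apart from that of Mcm6, the brightest MCM2-7 sets all had names ending in _s_at or _x_at.

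Mcm7 was the gene whose probe sets disagreed most. Its brightest set had 12.87, 11.00, 10.36 and 11.22 in bone metastasis and 10.15 to 11.01 in primary tumour, with a log2 fold of 0.80 (SE 0.49, limma adjusted p = 0.268). A dimmer set had 8.05, 5.49, 4.26 and 6.06, against 8.24, 7.63, 8.42 and 8.86 in primary tumour. In this set metastasis array 1 lay among the primary arrays and the other 3 below all of them. Its log2 fold of -2.32, with an SE of 0.70, was a fall in the fit over probe sets (limma adjusted p = 0.0486). The remaining sets had log2 folds of 1.33 and -0.56 with no call. In all 4 sets of Mcm7, metastasis array 1 was the highest metastasis and array 3 the lowest.

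**Figure D3:**
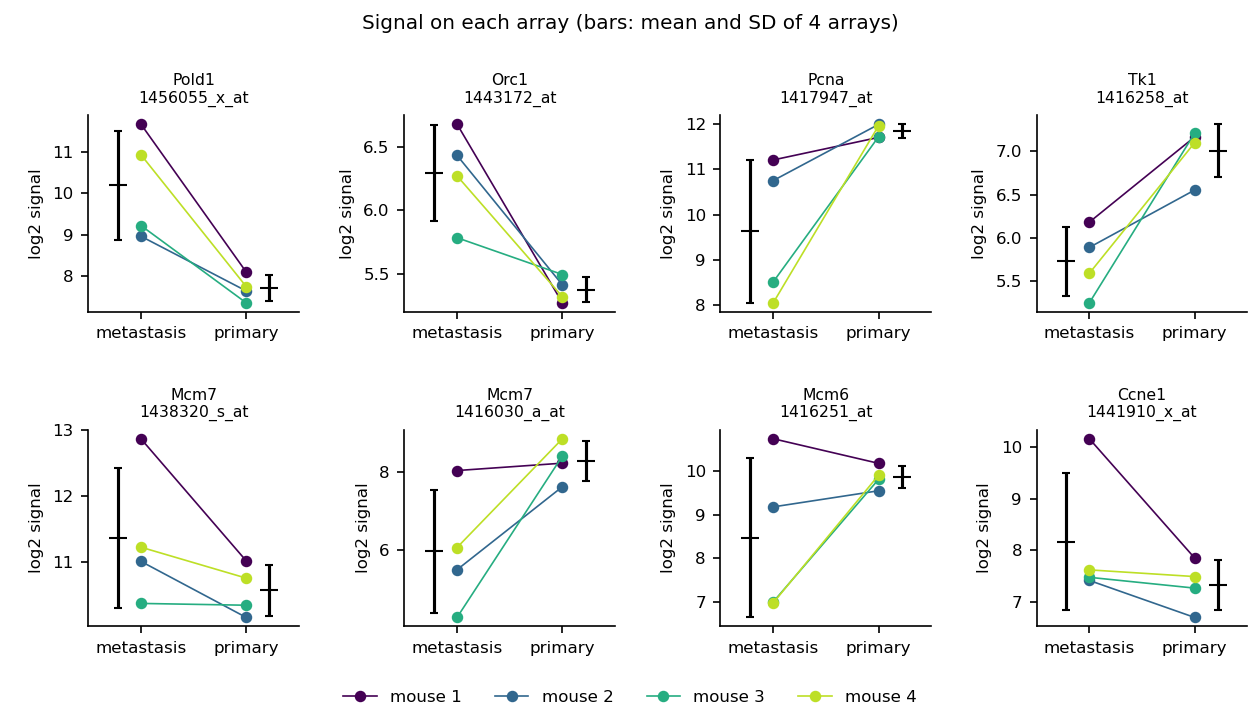
Log2 signal (y axis) of the 4 called genes, of 2 probe sets of Mcm7, and of Mcm6 and Ccne1, with the bone metastasis left and the primary tumour right in each panel, lines joining the tumours of a mouse and bars for the mean and SD of 4 arrays. Pold1 and Orc1 lie higher and Pcna and Tk1 lower in every metastasis, whereas the 2 Mcm7 sets slope in opposite directions.

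The helicase activation genes were Mcm10, Cdc45 and Gins1 to Gins3. None passed on the brightest set, and their log2 folds ran between -0.86 and 0.64. Cdc45, which binds the MCM ring together with GINS, had 6.97, 6.19, 6.41 and 6.66 in bone metastasis and 6.28 to 7.08 in primary tumour on its brightest set (log2 fold -0.23, adjusted p = 0.504). Its second set had 5.94, 6.17, 6.16 and 6.30, against 5.54, 5.60, 5.72 and 5.46, without overlap. That set rose by 0.56 with an SE of 0.13 (limma adjusted p = 0.0192 over probe sets). Metastasis array 1, the highest of the metastases on the first set, was the lowest on the second. Gins2, a GINS subunit, had a log2 fold of -0.52 on the brightest set and a fall of -1.36 on a dimmer one, where signals were 4.42, 4.10, 4.43 and 4.59 in bone metastasis, against 5.65, 5.60, 5.79 and 5.95 (SE 0.15, limma adjusted p = 0.00121). The spread among metastases on that dim set was 0.21 (SD, n = 4), close to the 0.16 of the primary arrays.

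Among the polymerase and primase genes, Pold1, the catalytic subunit of polymerase delta, had 11.66, 8.97, 9.22 and 10.93 in bone metastasis, against 8.10, 7.65, 7.36 and 7.75 in primary tumour. Every metastasis array lay above every primary array, arrays 1 and 4 by the most. The log2 fold of 2.48 (SE 0.57) was a 5.57-fold rise (limma adjusted p = 0.0171). It rests on an _x_at set too, and the other probe set of Pold1 had a log2 fold of 0.15 and no call. Pold2, the second subunit of the same polymerase, had 8.49, 8.21, 6.66 and 7.05, against 8.29 to 9.10 in primary tumour. It did not pass, at a log2 fold of -1.12 and an SE of 0.41 (limma adjusted p = 0.0854). Pola1, the catalytic subunit of polymerase alpha, had 9.0, 6.46, 4.99 and 5.68, against 6.11 to 6.98, with array 1 above and arrays 3 and 4 below all primary arrays and a log2 fold of -0.08. Prim1 and Prim2, the small and large subunits of primase, had log2 folds of 0.86 and -0.81 on their brightest sets, neither of them called. The other set of Prim1 had -1.48 and those of Prim2 had -0.16 and 0.53, also without a call. Pola2, Pole and Pole2 had log2 folds of -0.25, 0.38 and -0.88.

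Pcna, the sliding clamp that tethers the polymerases, had 11.21, 10.75, 8.51 and 8.05 in bone metastasis, against 11.70, 11.99, 11.72 and 11.96 in primary tumour. All metastasis arrays lay below all primary arrays, arrays 3 and 4 by over 3 units on the log2 scale and array 1 by less than 1. The log2 fold of -2.22 (SE 0.67) was a 4.65-fold fall (limma adjusted p = 0.0468). This call lay close to the threshold: with the mouse as a block the adjusted p was 0.0511, and without primary array 1, 2, 3 or 4 it was 0.0892, 0.106, 0.0995 and 0.112. Without metastasis array 3 or 4 it was 0.114 and 0.0863. The 5 clamp loader genes, Rfc1 to Rfc5, did not pass on the brightest set, with log2 folds between -0.49 and 0.35. Rfc2 had 8.70, 8.46, 8.25 and 8.30 in bone metastasis and 8.42 to 8.65 in primary tumour on that set, the smallest spread over the metastases of the 6 genes of the clamp and its loader. An _x_at set of Rfc2 had 9.06, 8.18, 8.39 and 8.67, against 7.65, 7.55, 6.90 and 7.35, without overlap, and rose by 1.21 (SE 0.24, limma adjusted p = 0.00965 over probe sets). A dimmer set of Rfc1 rose by 1.08 (SE 0.31, limma adjusted p = 0.0389), with 7.84, 6.27, 6.82 and 6.71 in bone metastasis and 5.65 to 6.0 in primary tumour. Rfc4 had a log2 fold of 0.34 on its brightest set and -1.11 on its other set. Rfc3 had -0.49 and 0.69, and none of these sets was called.

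The genes for the single-strand binding protein RPA and for the joining of Okazaki fragments had no call on any probe set. Rpa3, the smallest RPA subunit, had 7.61, 7.11, 3.82 and 5.32 in bone metastasis and 7.03 to 8.09 in primary tumour. Its arrays 1 and 2 lay among the primary arrays and arrays 3 and 4 below (log2 fold -1.53, SE 0.76, limma adjusted p = 0.185). On their brightest sets Rpa1 and Rpa2 had log2 folds of 0.00 and -0.10, and their other sets had -1.42 and -0.05. Fen1, the flap endonuclease, had 12.53, 11.63, 11.96 and 12.03, against 11.68 to 11.94, a log2 fold of 0.24 on an _x_at set. Its other set had a log2 fold of -1.18. Lig1, DNA ligase I, had 10.86, 8.65, 8.10 and 8.91, against 8.65 to 9.38, a log2 fold of 0.09.

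Of the nucleotide supply genes, Tk1, the thymidine kinase of the salvage pathway, had 6.18, 5.89, 5.25 and 5.59 in bone metastasis, against 7.17, 6.55, 7.21 and 7.10 in primary tumour. The groups did not overlap, and array 2 of the primary tumours was the one nearest to the metastases. The log2 fold of -1.28 (SE 0.24) was a 2.43-fold fall (limma adjusted p = 0.00751). Rrm1, the large subunit of ribonucleotide reductase, had 9.80, 7.13, 6.65 and 7.33, against 8.50 to 8.81, so that array 1 lay above and the other three below all primary arrays (log2 fold -0.91, SE 0.60, limma adjusted p = 0.304). A second Rrm1 set fell by 0.91 as well, with an SE of 0.26 (limma adjusted p = 0.042 over probe sets). There array 1 had 5.46 and lay with the other metastases (5.26 to 5.87), and the groups overlapped in 1 array of each, with 5.79 to 6.89 in primary tumour. Rrm2, the small subunit, had 11.16, 8.85, 7.96 and 10.16, against 8.69 to 9.34, a log2 fold of 0.52 on an _x_at set. Its other sets had log2 folds of -1.35 and -0.63, and none of its sets was called. Tyms, thymidylate synthase, was left with 4 dim sets, since a set shared with another symbol was not used. The brightest had a log2 fold of 0.40 without a call, and one other rose by 0.70 (SE 0.20, limma adjusted p = 0.0413).

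Both E-type cyclins, the activators of Cdk2 at S phase entry, were without a call. Ccne1 had 10.17 on metastasis array 1 and 7.42, 7.48 and 7.62 on arrays 2 to 4, against 6.70 to 7.85 in primary tumour. On this _x_at set array 1 stood alone above all others (log2 fold 0.84, SE 0.60, limma adjusted p = 0.341). The other Ccne1 set had 7.79, 6.15, 5.44 and 6.28 in bone metastasis, against 5.46 to 5.90 in primary tumour. There arrays 1, 2 and 4 lay above all primary arrays, with a log2 fold of 0.71 and no call. Ccne2 had 5.39, 4.21, 3.34 and 4.14, against 3.51 to 4.62, a log2 fold of 0.23.

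Over all 88 probe sets, 7 were higher and 5 lower in bone metastasis by limma with adjustment over the 34945 probe sets with 1 symbol, of which 8.72% were higher and 11.9% lower. The 12 sets belonged to 12 genes, 29.3% of the 41, against 30.7% of all genes with a call on some set. Of the 30 genes with several sets, 24 (80%) had log2 folds on both sides of 0, against 50.2% of all genes with several sets, and the median distance between a gene's highest and lowest fold was 1.33, against 0.80. Among sets with a mean log2 signal of at least 6 these values were 81.2%, against 47.9%, and 1.63, against 1.15. The 13 sets with the suffix _x_at all had positive folds, against 71.5% of such sets over all genes. Of the 57 plain _at sets 23 (40.4%) had positive folds, against 60.3%. The platform files used here do not give where in a transcript a set lies, so position along the transcript was not tested as a source of these disagreements.

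**Figure D4:**
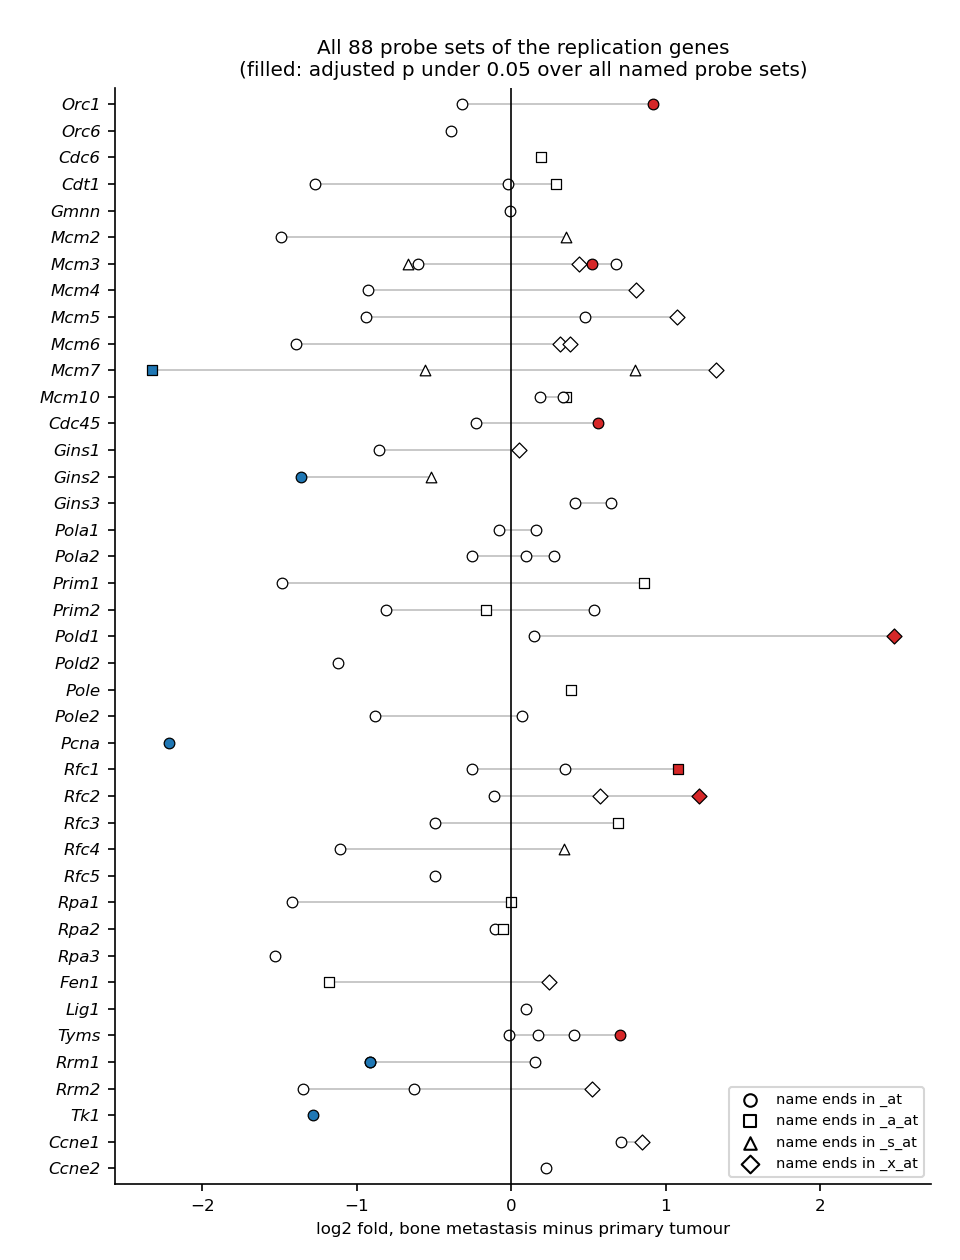
Log2 fold, bone metastasis minus primary tumour (x axis), of all 88 probe sets of the 41 genes, with a line joining the sets of a gene, shapes for the kind of probe set by the end of its name, and filled points for adjusted p under 0.05 over all named probe sets. Of the 30 genes with several sets, 24 have sets on both sides of 0, and the _x_at sets all lie right of 0.

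Genes next to these in the cell cycle were taken from 3 lists. Their counts stand beside 9.72% of all genes called higher and 12.1% called lower. Among all genes with a mean log2 signal of at least 6, 1264 of 9934 were higher and 1997 lower. Of 38 other replication genes measured, 1 was higher and 3 lower, with a median log2 fold of -0.21. Orc4, a subunit of the origin recognition complex, fell by 2.00 on the log2 scale (SE 0.29, limma adjusted p = 0.00275), with 5.85, 6.24, 5.43 and 4.76 in bone metastasis and 7.41 to 7.67 in primary tumour. Its 3 other sets had folds between -0.28 and -0.01. Pold4, a small subunit of polymerase delta, fell by 1.63 (adjusted p = 0.00495), and Rnaseh2a, the catalytic subunit of RNase H2, fell by 0.91 (adjusted p = 0.0297). Mcmbp, an MCM-binding protein, rose by 1.06 on its brightest set (adjusted p = 0.00461), though another set had a log2 fold of -2.45.

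Of 30 regulators of G1 and S phase entry, 2 were higher and 9 lower, with a median log2 fold of -0.24. E2f5, an E2F factor that acts with the pocket proteins as a repressor, fell by 1.95 (SE 0.18, limma adjusted p = 0.000593), with 9.56, 9.91, 10.09 and 10.34 in bone metastasis and 11.80 to 12.02 in primary tumour. Myc, a transcription factor that promotes growth and cycling, fell by 1.73 (adjusted p = 0.0146), and Cdk4, the G1 kinase of the D-type cyclins, fell by 1.64 (adjusted p = 0.0437). Ccnd1 and Ccnd2, 2 D-type cyclins, moved in opposite directions. Ccnd1 fell by 1.71 (SE 0.35, adjusted p = 0.0101), with 7.19, 8.39, 8.01 and 8.46 in bone metastasis and 9.08 to 10.34 in primary tumour. Ccnd2 rose by 1.70 (SE 0.37, adjusted p = 0.013), with 11.94, 11.36, 10.64 and 11.46 in bone metastasis and 9.10 to 10.57 in primary tumour, although its 6 other sets had folds between -0.92 and 1.25. The other called genes were Cdkn2d, which was higher (1.43), and Rbl2 (-1.43), Cdkn2c (-1.32), E2f6 (-0.94), Cdkn1a (-0.85) and Cdk2 (-0.76), which were lower. Other sets had log2 folds of -0.34 for Rbl2, -0.04 for E2f6, -2.79 for Cdkn1a and 0.18 for Cdk2. Cdkn1a, Cdkn2c and Cdkn2d encode CDK inhibitors and Rbl2 a pocket protein that restrains E2F, so the lower genes held activators and inhibitors of S phase entry alike.

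Of 19 mitosis genes measured, 0 were higher and 4 lower, with a median log2 fold of -1.10. Bub1, a spindle checkpoint kinase, fell by 1.94 (SE 0.42, limma adjusted p = 0.0132), with 6.43, 5.07, 4.23 and 5.11 in bone metastasis and 6.72 to 7.51 in primary tumour. Cdk1, the kinase that drives entry into mitosis, fell by 1.52 (adjusted p = 0.0297), Aurka by 0.80 (adjusted p = 0.0333) and Plk1 by 0.70 (adjusted p = 0.0375). Aurka and Plk1 are kinases of the spindle and centrosome. Another set of Bub1 had a log2 fold of -0.02 and another of Aurka 0.08, while Cdk1 and Plk1 had no other set. Set against the mean of the primary arrays, the median mitosis gene lay at 0.40, -0.99, -2.08 and -0.96 on metastasis arrays 1 to 4. Array 1 was the highest and array 3 the lowest, as for the replication genes.

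Bone marrow holds many dividing precursors of blood cells, and some of their markers moved with the groups and with the arrays. Of 11 measured B-cell precursor markers, 5 were higher and 0 lower in bone metastasis, where 9.72% and 12.1% of all genes were. Relative to the primary mean, their medians were 6.06, 1.67, 0.90 and 3.15 (metastasis arrays 1 to 4), and their mean log2 signal was 7.0 to 10.67 in bone metastasis and 5.32 to 5.54 in primary tumour. Vpreb1, a part of the pre-B-cell receptor, had 13.95, 10.67, 7.0 and 12.40, against 4.09 to 4.68, and Dntt, the polymerase that adds bases at antigen receptor joints, had 11.51, 7.34, 4.64 and 7.32, against 3.79 to 4.18. Rag1, the recombinase of the same cells, had 9.69 on metastasis array 1 and 3.70 to 4.47 on arrays 2 to 4, against 3.32 to 3.55 in primary tumour. Vpreb1 was called higher, but Dntt and Rag1 were not (limma adjusted p = 0.0541 and 0.27). Metastasis array 1, the one with the highest replication signals, thus held the highest signals of these named markers, and array 3 the lowest or nearly so. Ebf1, Rag2 and Il7r were highest on array 1 too, but their lowest metastasis was not array 3. Ebf1, which was called higher, was nearer to level, with 11.38, 10.07, 10.27 and 10.75. Rag2 and Il7r were not called (log2 folds 0.29 and 0.21). Of 11 granulocyte precursor markers, 9 were higher and 0 lower. Their mean log2 signal was 9.38 to 10.14 in bone metastasis and 6.09 to 6.62 in primary tumour. Their medians of 3.20, 3.91, 2.79 and 3.03 did not follow the order of the replication genes. The B-cell precursor medians did not follow it in full either. They were higher on array 4 (3.15) than on array 2 (1.67), where the replication genes had -0.22 and -0.13. Of 9 erythroid markers none was called, with a mean of 5.26 to 5.45 in bone metastasis and 5.03 to 5.23 in primary tumour. Of 10 macrophage markers 8 were lower, with a mean of 7.91 to 9.65 in bone metastasis and 10.76 to 11.72 in primary tumour. In the remaining lists none was lower, and 8 of 8 nerve markers, 4 of 8 cartilage and bone markers, 1 of 8 T and NK cell markers and 1 of 6 endothelial markers were higher. The mean log2 signal of the nerve markers was at least 8.33 on each metastasis array and at most 4.8 on each primary array. The actin drop was 4.85, 4.55, 5.72 and 6.18 on metastasis arrays 1 to 4. Arrays 3 and 4 had the largest drops and the lowest replication medians, but the orders differed. Array 4 had the largest drop, and its replication median (-0.22) lay near that of array 2 (-0.13). Among all genes with a mean log2 signal of at least 6, the medians were low on arrays 3 and 4 too (-0.33 and -0.41). The part of the marrow cells and of RNA quality in the replication gene values was not tested.

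**Figure D5:**
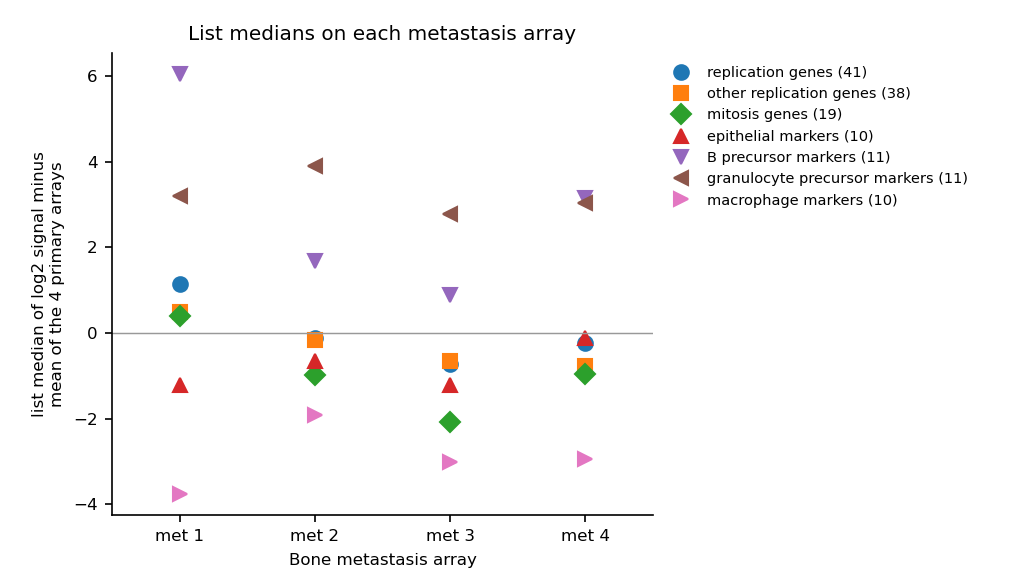
Median over each list of log2 signal minus the mean of the 4 primary arrays (y axis) on bone metastasis arrays 1 to 4 (x axis), with the number of genes in brackets. The replication genes lie at 1.16 on array 1 and -0.72 on array 3, the B precursor markers at 6.06 and 0.90, and the epithelial markers at -1.20 and -1.22.

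Grouped by the promoter letters, the 13 genes with E2F letters had a median log2 fold of 0.29, with 2 higher and 0 lower, and their medians relative to the primary mean were 1.33, -0.13, -0.31 and 0.08 (metastasis arrays 1 to 4). The 20 genes with a window and without these letters had a median of -0.05, with 0 higher and 2 lower, and medians of 0.71, -0.12, -0.91 and -0.24. Array 1 was the highest and array 3 the lowest in both groups. Over all genes 9.72% were called higher and 12.1% lower. The 2 higher genes were Pold1 and Orc1, whose other sets had log2 folds of 0.15 and -0.32 without a call. The difference between the groups of genes was not tested and rests on few calls.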

How the data were processed

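The authors deposited log2 signals, 1 per probe set and array, made with RMA (background correction, quantile normalization and summary over probes), per the submitters' processing notes; the RMA version and any later step are not given in the sources used here. According to the labels' protocols, RNA was amplified in 2 cycles before biotin labelling. No other normalization was applied. Of 45101 probe sets, 64 were controls, and 932 with several symbols and 9160 with none were left out. The brightest of each gene's probe sets (highest mean over 8 arrays) was used, and a second fit took all 34945 named sets. The 2 groups were compared, metastasis minus primary, in limma 3.58.1 (lmFit and eBayes, R 4.3.3), two-sided, without a block or a filter, with Benjamini-Hochberg adjustment over all genes or sets. The number of arrays limits the precision.

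Both tumours of a number came from 1 mouse, per the series' design text; the correlations of their deviations from the group means were 0.17, 0.01, 0.02 and -0.11. The members and lists were chosen with earlier results of these data known, and a gene list is described by its counts and median, with no test. Genes were described in full where they passed the threshold or another probe set passed in the opposite direction, and up to 5 called genes by size of fold were named from each further list. Other genes are named for their place in the pathway, and genes given in full beyond this rule (Mcm6, Rpa3, Ccne1 and the like) were chosen after their values were seen. Promoter windows and motif counts came from RefSeq (GRCm38.p6). The limma steps were tested on simulated data. Python 3.11.15, numpy 2.4.6, pandas 2.3.3, scipy 1.17.1 and matplotlib 3.10.9 were used.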

Additional observations from a re-analysis of the deposited data

Results flagged for a closer look

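Of 82 groups of 4 arrays (41 genes in each of 2 groups), 3 held an array far from the other 3 of its group, where chance gives about 1 in 20. Gins1 had a log2 signal of 7.49 on bone metastasis array 1, against 5.18 to 5.37 on metastasis arrays 2 to 4. Ccne1 had 10.17 on bone metastasis array 1 on its brightest set, an _x_at set, against 7.42 to 7.62 on the other 3 metastases. Tk1 had 6.55 on primary array 2, against 7.10 to 7.21 on the other primary arrays. The gap to the nearest array took up 0.91, 0.93 and 0.83 of the group's range, above Dixon's 95% critical value for 4 values. Without metastasis array 1 the log2 fold of Gins1 was -1.41 (limma adjusted p = 0.00677), and without primary array 2 that of Tk1 was -1.43 (limma adjusted p = 0.0105).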

How the results depend on the processing

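Quantile normalization, scaling to the 75th percentile, an intensity trend and array weights left 2 genes higher and 2 lower. Over all 18193 genes these fits called 1811 to 2453 higher and 1853 to 2217 lower. That percentile scaling put the all-gene median at 0.30, against 0.09. With the mouse as a replicate block 3 genes were higher and 1 lower, against 2 and 2, where 1389 and 1895 of all genes passed. Lower probe sets were 3, against 5. Pcna was lost (limma adjusted p = 0.0511) and Mcm4 gained on an _x_at set, and no other call on the brightest sets changed. With the most variable probe set 5 genes were higher and 4 lower, where 2004 and 3065 of all genes passed. In that fit 2 genes turned, Mcm7 to -2.32 (limma adjusted p = 0.0400) and Rfc2 to 1.21 (limma adjusted p = 0.00843). With the mean of a gene's sets 0 were higher and 3 lower, where 1605 and 2307 of all genes passed. Genes of a mean log2 signal of at least 6 gave 1 higher and 2 lower (probe sets, 3 and 3), where 1266 and 2239 of 9934 passed. Without _s_at and _x_at sets, chosen after seeing the data, 1 was higher and 4 lower, where 1507 and 2453 of 17903 genes passed. Mcm7 was then at -2.32 (limma adjusted p = 0.0462) and Pold1 at 0.15. Leaving out single arrays or mice gave 0 to 2 genes higher and 0 to 10 lower, where 697 to 2119 and 708 to 2719 of all genes passed. Of the replication probe sets, 0 to 7 were higher and 1 to 23 lower, and the medians of the replication genes lay between -0.29 and 0.31. Calls over all probe sets were not counted in the alternative fits. The probe set counts given here thus have no share to stand beside and are not read as a result. The actin drop as a covariate, nearly tied to the group, left 0 genes and 0 probe sets called by limma in either direction (over all genes 0, and 2470 at an unadjusted p under 0.05), moved the median to 1.62, and turned Pcna to 3.49 (adjusted p = 0.369) and Tk1 to 0.14 (adjusted p = 0.932). The cause was not tested. Of 22 alternatives, Tk1 was called in 19, Pold1 in 16 and Pcna in 11, and Orc1 in 16 of 21.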
